A study of Homo sapiens with 4 samples.

Results

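The RNAs considered here are those of 6 genes of poly(A)-tail biology: LARP4 itself, its paralogs LARP4B and LARP1, the cytoplasmic poly(A)-binding proteins PABPC1 and PABPC4, and RACK1 (also called GNB2L1). Members were all intervals of the deposited lists that touched the window of one of these genes on the gene's strand in hg19. They numbered 183 of 171755 clusters in replicate 1, 232 of 191899 clusters in replicate 2, and 13 of 7153 regions in the series-wide list. The RNA came from HEK293 cells, an established line of human embryonic kidney origin, and was recovered by eCLIP (enhanced crosslinking and immunoprecipitation), in which ultraviolet light fixes a protein to the RNA it touches before an antibody pulls it down. There were 2 LARP4 eCLIP replicates, made with the antibody Bethyl A303-900A, and 2 size-matched inputs, which are RNA of the same gel range taken with no antibody. All 4 samples were HEK293 cells given 400 mJ/cm2 at 254 nm, with no genetic change or further treatment in the labels. Each eCLIP replicate has its own list of clusters, while the inputs are present here through the authors' log2 fold alone, where they are the denominator.

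LARP4 is a cytoplasmic protein of the La-related family that binds poly(A), contacts the cytoplasmic poly(A)-binding protein and RACK1, and is known for lengthening poly(A) tails and stabilising mRNAs. LARP4B is its close paralog and is also known to contact poly(A)-binding protein and RACK1. LARP1 is a more distant relative that binds the 5′ cap and the adjoining pyrimidine tract of TOP mRNAs, the class that encodes ribosomal proteins and other parts of the translation machinery. PABPC1 is the main protein that coats poly(A) tails in the cytoplasm, and PABPC4 is a related poly(A)-binding protein. RACK1 is a scaffold protein of the small ribosomal subunit. The mRNAs of PABPC1, PABPC4 and RACK1 are themselves TOP mRNAs.

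By the median over all clusters of a window, introns included, the 6 genes fell into 3 levels of enrichment over input. The median log2 fold over the clusters of a gene was 2.62 in replicate 1 and 2.76 in replicate 2 for PABPC1, and 2.06 and 2.35 for RACK1. It was 1.04 and 0.79 for LARP1, and 0.78 and 0.87 for PABPC4. It was 0.11 and 0.01 for LARP4B, and −0.21 and 0.01 for LARP4. Over all clusters of the lists the median was 1.28 and 1.30. PABPC1 and RACK1 thus lay above the median of all clusters in both replicates, and the other 4 genes lay below it in both. Among these 4 genes the levels were less distinct in the last 5 kb of the windows. The mean of the replicates' medians there was 1.27 in LARP1, 1.18 in PABPC4, 1.00 in LARP4B and 0.69 in LARP4.

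As means over the replicates, the gene medians were 2.69 ± 0.10 for PABPC1, 2.20 ± 0.20 for RACK1, 0.91 ± 0.18 for LARP1, 0.83 ± 0.06 for PABPC4, 0.06 ± 0.07 for LARP4B and −0.10 ± 0.15 for LARP4 (SD, n = 2 each). Both PABPC1 values exceeded both RACK1 values. LARP1 and PABPC4 overlapped in their replicate values, and LARP4B and LARP4 had the same value of 0.01 in replicate 2, so the order within these pairs was not resolved. The fold is a ratio to input within 1 interval and carries no information on how abundant an mRNA is. All genes were read from the same 2 libraries, so the order was described and not tested.

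**Figure D1:**
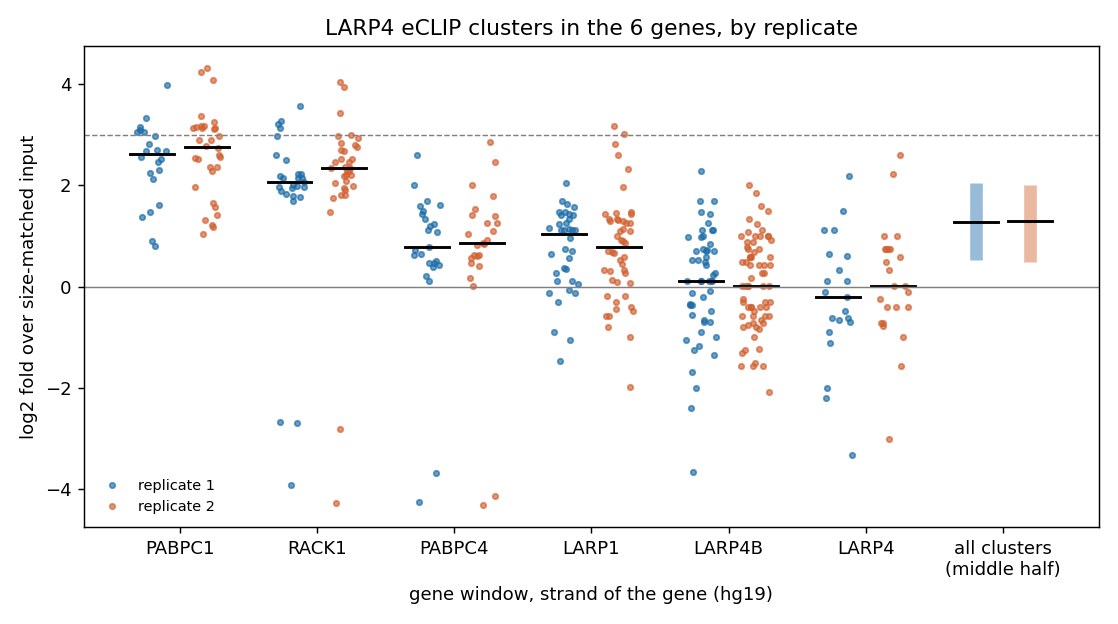
Log2 fold over size-matched input (vertical axis) of every LARP4 eCLIP cluster in the 6 gene windows, with 1 point per cluster, replicates side by side and a black bar at the median. For all clusters of the lists, at the right, the bar is the median and the shaded block runs from the lower to the upper quartile. The dashed line marks a log2 fold of 3. PABPC1 and RACK1 medians lie above 2, and those of LARP4B and LARP4 lie close to 0.

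Clusters were called enriched at a log2 fold of at least 3, which is 8-fold, with an authors' −log10 p of at least 3. PABPC1 had 6 of 22 enriched clusters in replicate 1 (27.3%, Clopper-Pearson 95% interval 10.7 to 50.2) and 12 of 32 in replicate 2 (37.5%, 21.1 to 56.3), against 5.01% and 5.50% of all clusters. RACK1 had 4 of 27 (14.8%, 4.19 to 33.7) and 3 of 34 (8.82%, 1.86 to 23.7), so both of its intervals include the share of all clusters. For counts of 0 the limit given is 3 counts of the total, which is lower than the Clopper-Pearson upper limit, added after it. LARP1 had 0 of 36 in replicate 1, which allows a share of up to 8.33% (Clopper-Pearson 9.74%), and 2 of 48 in replicate 2 (4.17%). PABPC4 had 0 of 25 in each replicate, which allows up to 12% (13.7%). LARP4B had 0 of 52 and 0 of 69, which allow up to 5.77% and 4.35% (6.85% and 5.21%). LARP4 had 0 of 21 and 0 of 24, which allow up to 14.3% and 12.5% (16.1% and 14.2%). Over the 6 genes together the share was 5.46% and 7.33%, near that of all clusters, and so is no result about the 6 genes as a set. PABPC1 and RACK1 held every call except the 2 of LARP1. These intervals and limits treat clusters as independent and cover counting error only.

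The genes separated further at a lower threshold. With the limit on p kept and the log2 fold lowered to 1, 20 of 22 and 32 of 32 PABPC1 clusters passed, and 24 of 27 and 32 of 34 RACK1 clusters did, against 14.0% and 13.7% of all clusters. PABPC4 passed with 6 of 25 in each replicate (24.0%), and LARP1 with 5 of 36 and 8 of 48 (13.9% and 16.7%). No cluster of LARP4B or LARP4 passed in either replicate. Their highest −log10 p was 2.94 and 1.99 in LARP4B, and 2.78 and 2.13 in LARP4. Read numbers per cluster are unknown. The median −log10 p differed widely between genes, at 12.8 and 19.4 in PABPC1, 26.4 and 24.6 in RACK1, 1.43 and 1.83 in PABPC4, 0.49 and 0.54 in LARP1, 0.06 and 0 in LARP4B and 0 and 0 in LARP4. For LARP4B and LARP4 the lists thus hold no cluster past the limit on p, with the depth behind their clusters unknown.

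The share of clusters below input was highest in LARP4B and LARP4, but did not follow the folds throughout. None of the 22 and 32 PABPC1 clusters had a negative log2 fold. In RACK1 there were 3 of 27 and 2 of 34 (11.1% and 5.88%), and in PABPC4 2 of 25 in each replicate (8%). LARP1 had 7 of 36 and 11 of 48 (19.4% and 22.9%). LARP4B had 21 of 52 and 30 of 69 (40.4% and 43.5%), and LARP4 had 12 of 21 and 11 of 24 (57.1% and 45.8%). Over all clusters the share was 11.6% and 11.2%. Among 4484 loci with at least 20 clusters, where a locus is a run of clusters on 1 strand with gaps of at most 5 kb, PABPC1's median log2 fold lay above that of 94.6% and RACK1's above that of 88.0%. LARP1 lay above 28.0%, PABPC4 above 23.6%, LARP4B above 4.75% and LARP4 above 3.06%. These ranks describe the 2 libraries. The windows of LARP4, LARP4B, LARP1 and PABPC1 hold 7, 5, 3 and 2 loci, so the ranks of these 4 genes set a whole window against single loci.

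PABPC1 (chromosome 8, 101715100 to 101734400, minus strand) had its highest folds at both ends. The RefSeq table names 13 pseudogenes of PABPC1 and 3 of RACK1, and the treatment of reads that match several places is not given, so the folds of both genes are uncertain to that extent. PABPC1 carried 10 of the 7153 series-wide regions (0.140%). Of 44219 loci, 2232 held any region, and 108 of these held more than 10. The PABPC1 window holds 2 loci, so this count also sets a whole window against single loci. The strongest PABPC1 region lay 98 bases from the 3′ end of the window, at 101715198 to 101715267. The log2 fold there was 3.99 in replicate 1 and 4.23 in replicate 2, or 4.11 ± 0.17 (SD, n = 2), which is 15.9-fold in the lower replicate. A second region at 101715394 to 101715478 had 3.34 and 4.32, a difference of about 1 unit between the replicates, and gave 3.83 ± 0.70. The next by the lower of the replicate values lay near the 5′ end, at 101734060 to 101734080, with 3.15 and 3.13 in the replicates.

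The PABPC1 regions were split between the gene's ends. Of the 10, 5 lay within 0.8 kb of the 5′ end of the window, 2 lay 3.9 kb from it, and 3 lay within 0.3 kb of the 3′ end. The 4 regions nearest the 5′ end differed little between the replicates, with, for example, 3.05 and 3.17 at 101734274 to 101734316, and 3.15 and 3.13 at 101734081 to 101734153, which shares its replicate 1 cluster with the region at 101734060. For 3 of the 10 regions the overlapping replicate 1 cluster was below a log2 fold of 3, at 2.56 for the 3-base region at 101733619 to 101733621 where replicate 2 had 3.38, and at 2.83 for the pair of touching regions at 101730480 to 101730508. Touching regions merged, the 10 became 6. The lowest overlapping pair of clusters in PABPC1, at 101733875 to 101733925, still stood above input with 0.90 and 1.04. It lay 475 bases from the 5′ end, in a dip between clusters of 3.15 and 2.56 in replicate 1 and of 3.13 and 3.38 in replicate 2. The dip was present in both replicates.

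RACK1 (chromosome 5, 180663900 to 180671000, minus strand) had its highest values at the 3′ end, and most of its other clusters stood above input at log2 folds below 3. All of its enriched clusters, 4 in replicate 1 and 3 in replicate 2, lay in the last 20% of the window, where 5 of the other 23 and 7 of the other 31 clusters lay. Its 3 series-wide regions lay there too. The region at 180663969 to 180664039, 69 bases from the end of the window, had 3.57 and 3.94, or 3.75 ± 0.26 (SD, n = 2), with the authors' −log10 p at its limit of 400 in both replicates. The touching 3-base region at 180664040 to 180664042 had 3.27 and 4.04, and the region at 180664608 to 180664627 had 3.13 and 3.44. Between the first and the last 1 kb, the clusters above input had log2 folds of up to 2.61 in replicate 1 and of 1.48 to 2.83 in replicate 2. The 5′ most cluster had 2.22 in replicate 1 at 180670761 to 180670900, and the replicate 2 clusters over the same bases had 2.69 to 2.99.

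PABPC4 (chromosome 1, 40026400 to 40042600, minus strand) had lower folds than PABPC1 in both replicates and no series-wide region. Its highest cluster was again near the 3′ end, with 2.59 in replicate 1 at 40026713 to 40026793 and 2.87 in replicate 2 at 40026592 to 40026645, which is 6.02-fold and 7.30-fold. The replicate 2 cluster over the first of these had 2.01. The clusters within 1 kb of the 3′ end had 2.01, 2.59 and 1.70 in replicate 1 and 2.01, 2.87 and 2.47 in replicate 2. None of the other PABPC4 clusters exceeded 1.79 in either replicate. The terminal clusters were therefore the highest of the gene in both libraries and stayed below the threshold of 3.

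**Figure D2:**
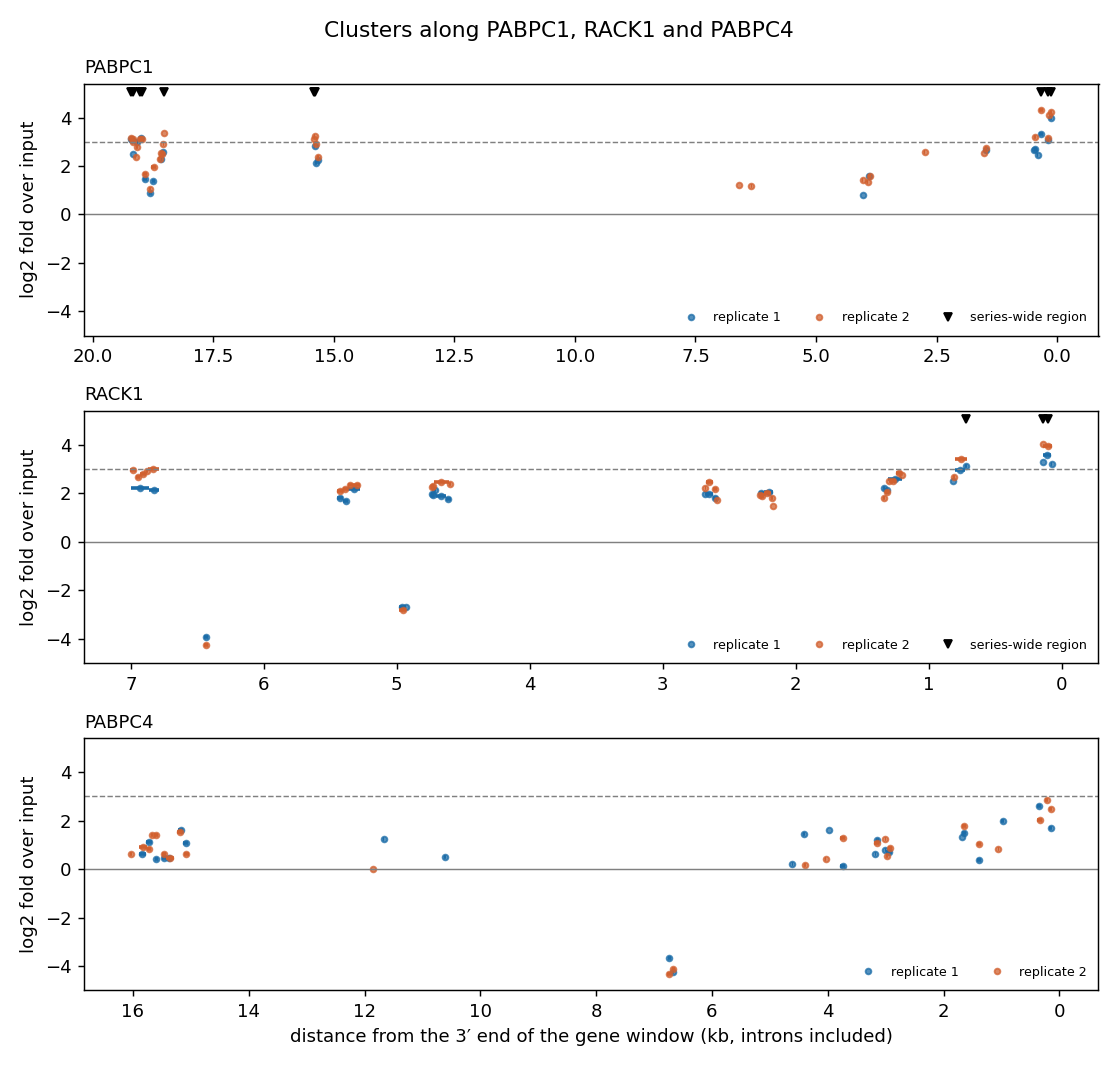
Log2 fold over input (vertical axis) of clusters along PABPC1, RACK1 and PABPC4, against distance from the 3′ end of the gene window in kb (5′ at the left, introns included). Points and short bars are clusters of replicate 1 and replicate 2, triangles along the top mark series-wide regions, and the dashed line marks a log2 fold of 3. In all 3 genes the highest folds lie next to the 3′ end, and RACK1 and PABPC4 each have clusters below −2 in both replicates.

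LARP1 (chromosome 5, 154092400 to 154197200, plus strand) had no cluster in the first 42.6 kb of its window. Its median folds were higher at both ends of the stretch that had clusters, at about the median of all clusters of the lists (1.28 and 1.30). In the first 1 kb of it, 6 clusters per replicate had median log2 folds of 1.28 and 1.29, and in the last 5 kb the medians were 1.24 over 12 clusters and 1.30 over 15. Between these stretches the medians were 0.11 over 18 clusters and 0.27 over 27, with 7 and 11 clusters below input. No cluster there had a log2 fold of at least 1 at a −log10 p of at least 3. Single clusters there reached log2 folds of 1.70 in replicate 1 and 2.82 in replicate 2, at −log10 p of 0.45 and 1.41. The single pair of LARP1 clusters past the threshold was in replicate 2, with 3.01 at 154196904 to 154196933 and 3.18 at 154197029 to 154197084, 116 bases from the end of the window. The replicate 1 cluster over the first of these, at 154196883 to 154196932, had 1.41, and replicate 1 had no cluster over the second.

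LARP4B (chromosome 10, 855400 to 977700, minus strand) had the same arrangement at lower folds. Its first 1 kb with clusters had medians of 0.74 over 4 clusters and 1.05 over 6, and its last 5 kb had 0.99 and 1.01 over 7 clusters each. None of these clusters was below input. The 41 and 56 clusters between the ends had medians of −0.08 and −0.31, and they held all 21 and all 30 clusters of the gene that were below input. The highest LARP4B cluster had 2.28 in replicate 1 at 868261 to 868323 and 2.01 in replicate 2 at 916251 to 916307, with −log10 p of 1.49 and 0.66. These were different places, and the other replicate had no cluster over either.

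LARP4 (chromosome 12, 50786100 to 50873900, plus strand), the mRNA of the immunoprecipitated protein, had the lowest medians of the 6 together with LARP4B. Its first 1 kb with clusters, 8.62 kb into the window, had medians of −0.69 over 3 clusters and −0.05 over 2. Its last 5 kb had 0.63 over 6 and 0.75 over 9, and the clusters between had −0.34 over 12 and −0.41 over 13. The highest cluster was 2.18 in replicate 1 at 50869484 to 50869597 and 2.59 in replicate 2 at 50824341 to 50824353. The replicate 2 cluster over the first of these had 1.01, and replicate 1 had no cluster over the second. The cluster nearest the 3′ end had 0.34 in replicate 1 and 2.23 in replicate 2, and the pair did not overlap.

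**Figure D3:**
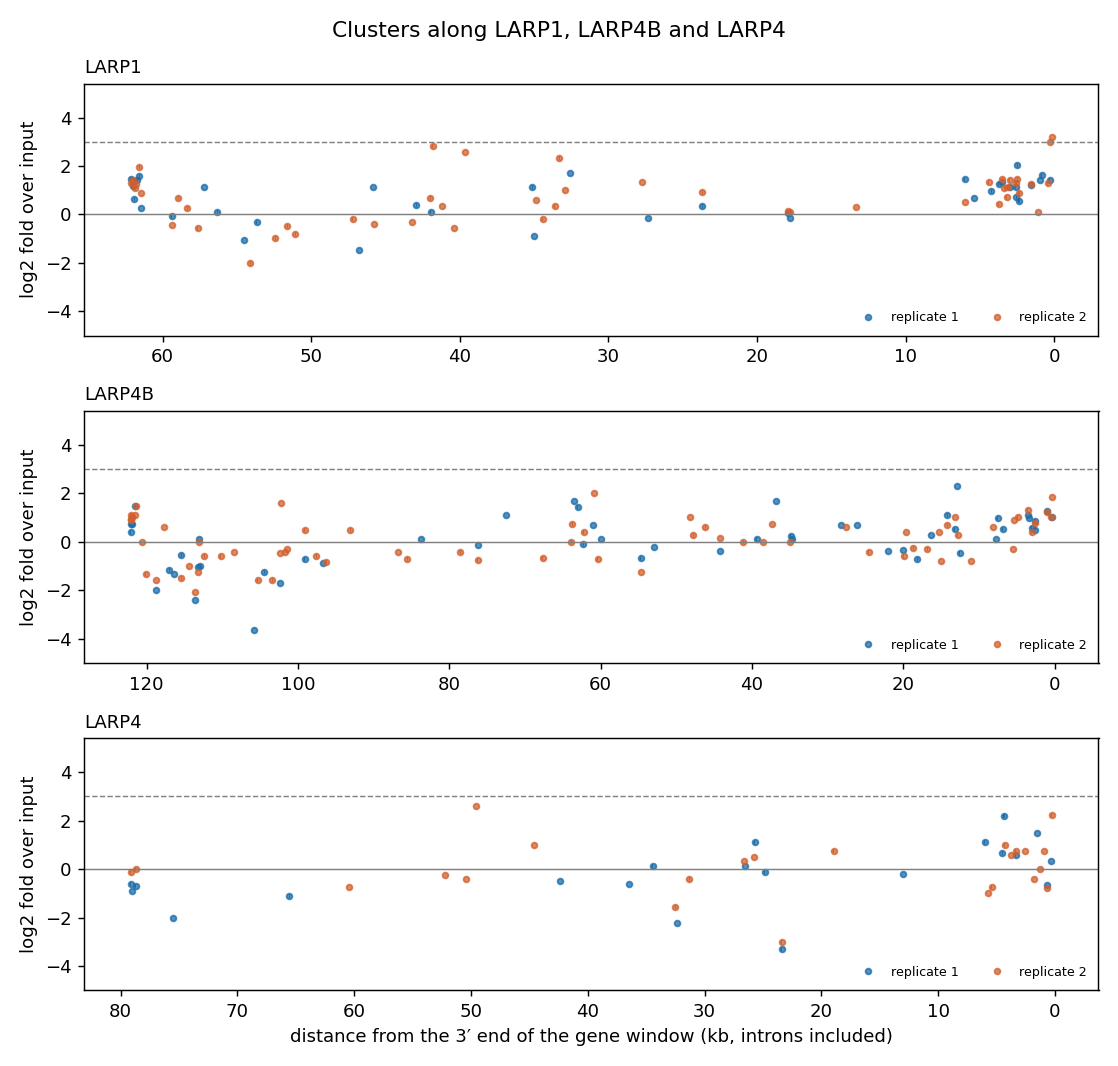
Log2 fold over input (vertical axis) of clusters along LARP1, LARP4B and LARP4, against distance from the 3′ end of the gene window in kb (5′ at the left, introns included). Points are clusters of replicate 1 and replicate 2, and the dashed line marks a log2 fold of 3. In LARP1 and LARP4B the clusters at both ends lie above 0 while those between scatter around 0, and only 2 replicate 2 clusters of LARP1 reach 3.

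In 5 of the 6 genes the last 1 kb of the window had higher folds than the stretch between the first and the last 1 kb. In the last 1 kb of the window the mean of the replicates' median log2 folds was 3.48 ± 0.86 for PABPC1, 3.43 ± 0.36 for RACK1, 2.24 ± 0.33 for PABPC4, 2.22 ± 1.11 for LARP1, 1.28 ± 0.21 for LARP4B and 0.29 ± 0.64 for LARP4 (SD, n = 2 each). Between the first and the last 1 kb it was 2.32 ± 0.19, 2.08 ± 0.17, 0.78 ± 0.08, 0.61 ± 0.12, 0.06 ± 0.07 and 0.01 ± 0.01 in the same order of genes. The last 1 kb was higher in both replicates for PABPC1, RACK1, PABPC4, LARP1 and LARP4B. For LARP4 it was lower in replicate 1, at −0.16 against 0.00, and higher in replicate 2, at 0.75 against 0.01. For PABPC1 and RACK1 this depended on which stretches were compared. The median of the last 5 kb minus that of the clusters before it was 0.16 and −0.04 in PABPC1 and 0.08 and −0.23 in RACK1. It was 0.76 and 0.46 in PABPC4, 0.87 and 0.97 in LARP1, 0.87 and 1.00 in LARP4B and 1.25 and 1.00 in LARP4. With the first 1 kb with clusters also left out, the difference was 0.43 and 0.11 in PABPC1 and 0.24 and 0.01 in RACK1. The last 5 kb is most of the RACK1 window of 7.10 kb. It is a small part of the windows of LARP1, LARP4B and LARP4, at 104.8, 122.3 and 87.8 kb, so these differences are not alike between genes. The last 1 kb rests on 2 to 6 clusters per gene and replicate, and with 2 replicates the differences were not tested.

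The 5′ ends of PABPC1 and RACK1 also stood above input. The first 1 kb with clusters had a mean median log2 fold of 2.66 ± 0.17 in PABPC1 and 2.51 ± 0.51 in RACK1, while LARP1 had 1.28 and 1.29 in the replicates. The means were 0.89 ± 0.22 in LARP4B, 0.72 ± 0.15 in PABPC4 and −0.37 ± 0.46 in LARP4 (SD, n = 2 each). PABPC4 was thus among the lower 4. Annotated starts from RefSeq (build GRCh38.p14, a different build from the clusters) were found for 4 of the 6 genes, RACK1, LARP4B, LARP4 and LARP1. The 30 bases centred on the start, 15 on each side, are printed 5′ to 3′ with the longest run of C or T in capitals, to show the tract that defines a TOP start. Where a gene had several starts, the start with the longest run is given, and it was not matched to the positions of the clusters.
RACK1, chr5:181243892-181243921, minus strand: ggggggCTTTTCTCTCTCTCTTTCactgca
LARP4B, chr10:931691-931720, minus strand: gggccccggaagtgggagctgtgtgTTCTC
LARP4, chr12:50401392-50401421, plus strand: TTCCgggggccgagcgcggcctcgcggggc
LARP1, chr5:154757139-154757168, plus strand: TCCCCCCTTCCCagcattcctctgcagccg

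RACK1 alone of these had a run that crossed the annotated start, 18 bases long, and 0.390% of 35116 promoters held a run at least as long in this window. The LARP1 run of 12 bases ended before the start and had a match in 3.23% of promoters. The other 3 LARP1 starts had runs of 4, 5 and 10 bases, the 3 LARP4 starts had runs of 3 to 4, and LARP4B had 5, which 49.6% of promoters reach. The run is a description of the annotated start, and no test links it to the folds.

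Agreement in position between the replicates was highest in RACK1 and PABPC1 and lowest in LARP4B and LARP4. It did not follow the order of the folds throughout, as RACK1 exceeded PABPC1 here with a lower median fold. All 27 RACK1 clusters of replicate 1 overlapped a replicate 2 cluster, as did 21 of 22 in PABPC1, 20 of 25 in PABPC4, 21 of 36 in LARP1, 22 of 52 in LARP4B and 6 of 21 in LARP4. The bases covered in both replicates were 99.6% of the replicate 1 total in RACK1, 96.8% in PABPC1, 84.4% in PABPC4, 59.5% in LARP1, 31.3% in LARP4B and 21.1% in LARP4. As shares of the replicate 2 total they were 98.3%, 84.4%, 83.0%, 41.1%, 28.6% and 21.2%. Where clusters overlapped, the log2 folds lay within 0.5 of each other in 16 of 21 pairs of PABPC1, 20 of 27 of RACK1, 13 of 20 of PABPC4, 13 of 21 of LARP1, 14 of 22 of LARP4B and 3 of 6 of LARP4. Replicate 2 was the higher in 17 of the 21 PABPC1 pairs and 19 of the 27 RACK1 pairs. It was also higher in 13 of 20 PABPC4 pairs and 15 of 21 LARP1 pairs. In LARP4B it was higher in 12 of 22, and in LARP4 in 4 of 6. Over all pairs of a gene, the median of replicate 2 minus replicate 1 was 0.18 in PABPC1 and 0.31 in RACK1. In the others it was 0.15 to 0.23. Some replicate 2 clusters occur in more than 1 pair. No cluster of any list lay on the opposite strand of the 6 windows.

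**Figure D4:**
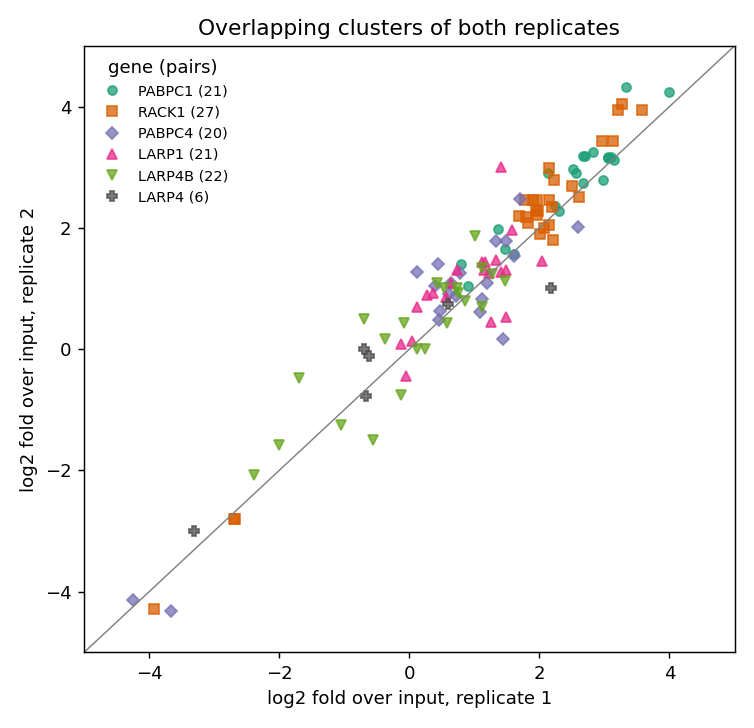
Log2 fold over input of replicate 2 (vertical axis) against replicate 1 (horizontal axis) for overlapping clusters, with 1 point per replicate 1 cluster, a symbol per gene and the line of equality. PABPC1 and RACK1 points sit at the upper right, mostly above the line, and the points below −2 in both replicates belong to RACK1, PABPC4, LARP4B and LARP4.

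Sharply depleted sites interrupted 4 of the 6 genes. Log2 folds of −2 or lower in both replicates were found at 2 sites in RACK1 and at 1 site each in PABPC4, LARP4 and LARP4B, and at none in PABPC1 or LARP1. Counted as clusters within each replicate, those at or below −2 were 11 of 183 and 6 of 232 over the 6 genes. Over all clusters they were 995 of 171755 (0.579%) and 966 of 191899 (0.503%). In RACK1 the 27-base site at 180670323 to 180670349 had −3.92 and −4.28, and the site at 180668827 to 180668884 had −2.68 and −2.70 in 2 replicate 1 clusters and −2.80 in replicate 2. Both lay within 2.2 kb of the 5′ end, between clusters above input on each side. The PABPC4 site, 127 bases at 40033046 to 40033172, had clusters of −3.67 and −4.25 in replicate 1 and of −4.32 and −4.13 in replicate 2. The LARP4 site, 122 bases at 50850448 to 50850569, had −3.32 and −3.00. The LARP4B site, 45 bases at 968971 to 969015, was the shallowest, with −2.39 and −2.08.

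The 3 genes with the deepest sites in both replicates are hosts of small nucleolar RNAs. These are stable RNAs cut from introns that guide the modification of ribosomal and other RNAs. The RefSeq table lists SNORD95 and SNORD96A inside RACK1, SNORA55 inside PABPC4 and SNORD133 inside LARP4, and none inside PABPC1, LARP1 or LARP4B. Low clusters within 100 bases of each other were counted as 1 site, which joins the 2 in each replicate of PABPC4. Clusters low in 1 replicate alone, which LARP4 and LARP4B had in replicate 1, were not counted. The lowest of these, at 961175 to 961231 in LARP4B, had −3.66, which is below both values of the LARP4 site. Replicate 2 had no cluster over it. By this count the number of snoRNA genes equals the number of depleted sites in 5 of the 6 genes. Of these 5, PABPC1 and LARP1 have neither, and the exception is LARP4B with 1 site and no snoRNA. The table is of another build, so no site was placed on a snoRNA, and whether they are the same bases was not tested. The authors' −log10 p is 0 at every cluster with a negative fold, so depletion has no p.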

How the data were processed

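The authors deposited 1 list of stranded intervals per LARP4 eCLIP replicate and 1 for the series. Per the labels' protocols, reads went through the authors' eCLIP pipeline, and the submitters' processing notes list STAR 2.7.6a, SAMtools 1.6, cutadapt 1.14, UMI-tools 1.0.0 and hg19. Not given in the sources used here are the peak caller, the scaling and how replicates were combined. The deposited values per interval are a −log10 p, limited to 400, and a log2 fold over input, both by the authors. With no header in the lists, these meanings were inferred from the numbers.

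The 6 windows were given to the nearest 100 bases. Clusters of the replicates were paired by the longest overlap of at least 1 base. Named intervals were the 3 series-wide regions per gene with the highest lower replicate value, the highest cluster of genes with no region and the lowest pair. Other intervals were chosen after their values were seen. The members were chosen with earlier results of these data known, and the stretches at gene ends after seeing the data. With 2 replicates and no control list, nothing was tested. Interval and pairing functions were tested on simulated intervals. Exons and introns, and other genes of the pathway, were not analysed here, as no hg19 annotation was used. Tables were computed with pandas 2.3.3, numpy 2.4.6 and SciPy 1.17.1 under Python 3.11.15, and drawn with matplotlib 3.10.9.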

Additional observations from a re-analysis of the deposited data

How the results depend on the processing

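Of 86 alternatives run on the 6 genes, 18 moved a count by over 1.5 times or a value by over 1 SD of the replicates. The others are no measure of stability, since leaving out 1 of 2 replicates moves a mean by less than 1 SD by construction, and stricter limits cannot lower a count of 0. Counts of enriched clusters are means of both replicates here. With the log2 fold raised to 4 they were 1.5 in PABPC1, 0.5 in RACK1 and 0 in LARP1, against 9, 3.5 and 1 with it at 3. With it lowered to 1 they were 26 in PABPC1, 28 in RACK1, 6 in PABPC4 and 6.5 in LARP1. With −log10 p of at least 5, LARP1 had 0.5. The opposite strand had 0 in PABPC1, RACK1 and LARP1. Without replicate 1 or replicate 2 in turn, the LARP1 count ranged from 0 to 2, so its calls rest on replicate 2. Touching regions merged, PABPC1 had 6 regions in place of 10. The RACK1 share of enriched clusters in the last 20% of the window, 100%, was 70.8% in the last 10%. Over clusters with −log10 p of at least 3 alone, the median log2 fold was 1.73 in PABPC4 and 1.42 in LARP1, and LARP4B and LARP4 had no such cluster. Weighted by width, it was 1.12 in LARP1. No paired analysis was possible because the inputs had no list of their own here. Depth is unknown for every gene, and no cluster of LARP4B or LARP4 reached a −log10 p of 3.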

Other observations

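The log2 folds took repeated values. The most frequent was 1.70 in replicate 1, at 17424 of 171755 clusters (10.1%), and 1.59 in replicate 2, at 20341 of 191899 (10.6%). Among the 6 genes these values occurred in 1 PABPC4, 1 LARP1 and 2 LARP4B clusters of replicate 1, and in 1 LARP4B cluster of replicate 2. They occurred in no cluster of PABPC1, RACK1 or LARP4.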
